A study of Homo sapiens with 6 samples.

Results

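DNA end joining factors, the proteins that rejoin broken DNA ends without a long homologous template, were taken as 10 genes chosen by name: XRCC5, XRCC6, PRKDC, DCLRE1C, POLL, POLM, XRCC4, LIG4, NHEJ1 and POLQ. All 10 were found among the 55882 gene rows of the count table, and all 10 passed the filter on low counts. They were measured by sequencing of polyadenylated RNA in DIvA cells, which derive from the human osteosarcoma line U2OS and carry a drug-responsive form of the restriction enzyme AsiSI, which 4-hydroxytamoxifen (4-OHT) brings into the nucleus to cut DNA. There were 3 libraries of cells with the genotype p53 WT and 3 of cells with the genotype p53 KO. All 6 received 300 nM 4-OHT for 5 h, so both groups had the enzyme and the drug, and the effect of cutting itself was not analysed here. The labels do not say whether the p53 KO cells were 1 clone or several, nor whether replicates were separate cultures. P-values therefore measure only the spread between these samples.

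In classical end joining, the ring of Ku70 (XRCC6) and Ku80 (XRCC5) slides onto a broken end and recruits the kinase DNA-PKcs (PRKDC). The nuclease Artemis (DCLRE1C) trims ends, the polymerases lambda (POLL) and mu (POLM) fill gaps, and the ligase LIG4 with its partner XRCC4 and the XRCC4-like factor XLF (NHEJ1) seals the break. Polymerase theta (POLQ) drives another route, which pairs short stretches of homology exposed on resected ends and leaves small deletions.

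Total counts were 20393909 to 79767519 per library, lowest in p53 KO replicate 3. Levels are in CPM, counts scaled to a common library size. Where 0 counts were seen, a level of up to 3 counts (0.0381 to 0.1504 CPM) remains possible, and this covers counting error alone because the reads carry no molecular identifiers. CDKN1A, the cell cycle inhibitor that p53 induces, had 520.5 to 572.1 CPM in p53 WT and 41.8 to 49.1 CPM in p53 KO, which separated the groups as labelled. Of the 8 osteosarcoma and mesenchymal markers listed, summed levels were 5184 to 5791 CPM in p53 WT and 3341 to 3781 CPM in p53 KO, with TWIST1 at 0 in all p53 WT libraries and at 0.189 CPM or less in p53 KO. Leukocyte markers summed to 12.5 to 14.7 CPM in p53 WT and 4.51 to 6.23 CPM in p53 KO. Epithelial markers summed to 8.74 to 15.03 CPM and 16.7 to 25.3 CPM, and endothelial markers to 1.07 to 1.75 CPM and 2.36 to 2.58 CPM, in p53 WT and p53 KO. The part of these markers in the results below was not tested.

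Of the 10 end joining genes, 1 (POLQ) was higher in p53 KO and 2 (XRCC6 and POLL) were lower, at an adjusted p under 0.05 by edgeR's quasi-likelihood test with Benjamini-Hochberg adjustment over 22352 genes. Across all genes tested, 12.1% were called higher and 14.4% lower, 26.5% in all, so the 3 of 10 called here were near the background. The median log2 fold change, p53 KO over p53 WT, was 0.04 for the 10 genes and 0.0052 for all genes tested. The groups did not overlap for 5 of the 10, 2 of them higher and 3 lower in p53 KO, where the same was seen for 40.8% of all genes, 19.4% higher and 21.4% lower. In such bulk samples, fewer cells of a kind and less RNA per cell cannot be told apart.

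**Figure D1:**
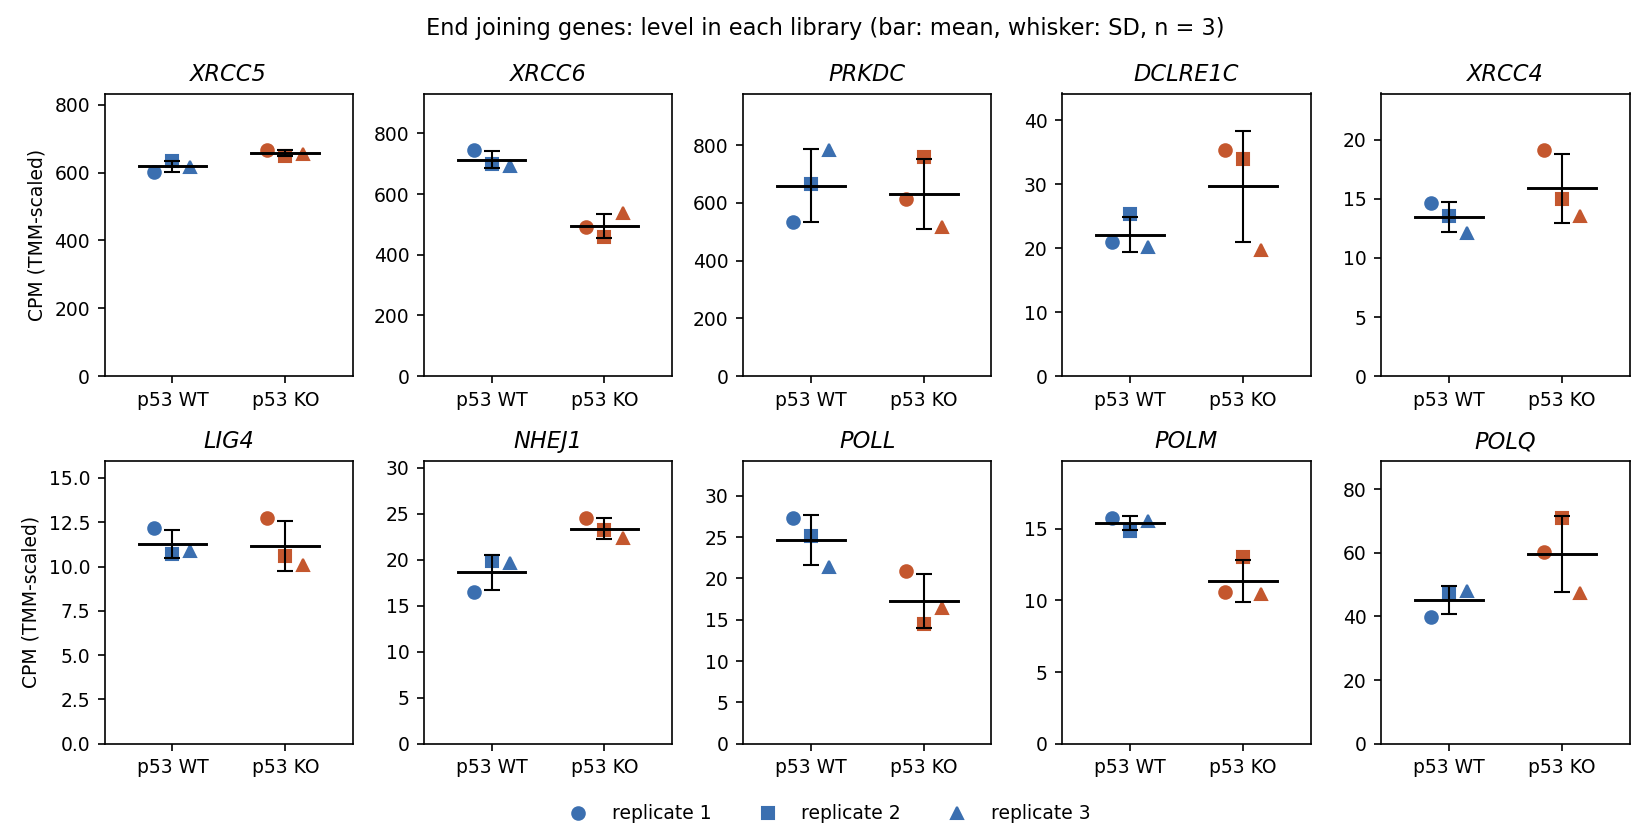
Level of each of the 10 end joining genes in every library, in CPM on an axis from 0 (circle, square and triangle are replicates 1, 2 and 3; the bar is the mean and the whisker the SD, n = 3). XRCC6 lay at 693 to 745 CPM in p53 WT and at 459 to 537 CPM in p53 KO, while the groups of PRKDC, LIG4, XRCC4, DCLRE1C and POLQ overlapped.

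The members differed widely in level. Per kilobase of exon (the union of GENCODE 29 exons, an annotation on another build than that of the authors), XRCC6 had the highest level in p53 WT, 217 ± 8.61 CPM per kb (SD, n = 3). XRCC5 followed with 113 ± 2.86 and PRKDC with 42.8 ± 8.13 CPM per kb (SD, n = 3), and the ranges of these genes did not overlap. The other members had 2.57 to 6.00 CPM per kb in p53 WT, from LIG4, the lowest, to NHEJ1. In descending order these were NHEJ1, XRCC4, POLQ, POLL, DCLRE1C, POLM and LIG4. The p53 WT ranges of neighbours in this order overlapped, except that LIG4, at 2.44 to 2.78 CPM per kb, lay below POLM, at 3.31 to 3.52. The order within this lower group changed with the transcript length used. With the longest APPRIS principal transcript as the length, a setting chosen after seeing the data, DCLRE1C moved from 3.50 to 9.41 CPM per kb, above NHEJ1 at 8.91, while XRCC6, XRCC5 and PRKDC kept the top ranks in this order. In p53 KO, XRCC6 had 151 ± 12.0 and XRCC5 120 ± 1.61 CPM per kb (SD, n = 3), so the Ku transcripts lay closer together than in p53 WT.

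Of the genes of break recognition, XRCC6 fell, and XRCC5 and PRKDC did not pass the threshold. XRCC6, which encodes Ku70, had 745, 700 and 693 CPM in p53 WT replicates 1, 2 and 3, and 490, 459 and 537 CPM in p53 KO replicates 1, 2 and 3. Every p53 KO library was below every p53 WT library. XRCC6 fell by 0.52 on the log2 scale (SE 0.09, 95% interval -0.72 to -0.33, edgeR adjusted p = 0.000635), from 713 ± 28.3 to 496 ± 39.5 CPM (SD, n = 3). Its call held in each of the 15 alternative settings other than the one that takes off the median of neighbouring genes, with log2 fold changes of -0.58 to -0.48. XRCC5, which encodes Ku80, had 603, 634 and 618 CPM in p53 WT and 667, 649 and 656 CPM in p53 KO replicates 1, 2 and 3. The groups did not overlap, yet the log2 fold change was 0.09 (SE 0.08, 95% interval -0.09 to 0.26, edgeR adjusted p = 0.492).

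Because the Ku proteins act as a pair, their transcripts were also compared within each library, where scaling between libraries has no effect. The ratio of XRCC5 to XRCC6 counts was 0.809, 0.906 and 0.892 in p53 WT and 1.36, 1.41 and 1.22 in p53 KO replicates 1, 2 and 3. The ratio was below 1 in all 3 p53 WT libraries and above 1 in all 3 p53 KO libraries. These counts do not allow for exon length, so a ratio of 1 does not mark equal levels. Per kilobase of exon, the mean of XRCC6 stayed above that of XRCC5 in p53 KO, at 151 against 120 CPM per kb. The log2 ratio was higher by 0.62 in p53 KO, and by 0.56 to 0.68 when 1 library was left out. An exact two-sided permutation test gave p = 0.1, the smallest that 3 against 3 allows, and 0.25 when adjusted over 5 ratios.

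PRKDC, the kinase that Ku recruits, varied most between libraries among the abundant members. It had 532, 664 and 783 CPM in p53 WT and 615, 758 and 517 CPM in p53 KO replicates 1, 2 and 3. The groups overlapped across most of their range. The log2 fold change was -0.07 (SE 0.15), and its 95% interval of -0.38 to 0.25 leaves room for a moderate change in either direction.

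XRCC6 lies on chromosome 22 among genes that were lower as well. The local median, taken over the 50 nearest protein-coding genes in chromosomal order with a mean of at least 2 CPM, was -0.43 on the log2 scale around XRCC6, and -0.39 and -0.42 with the 20 and 100 nearest genes. Net of the local median, XRCC6 had a log2 fold change of -0.09 (95% interval -0.29 to 0.10, edgeR adjusted p = 0.547). The adjacent gene NHP2L1 had -0.22 on the log2 scale (SE 0.13, edgeR adjusted p = 0.232), and its groups overlapped. The start of XRCC6 lies head to head with that of DESI1, a gene on the other strand, with 252 bases between the starts. DESI1 fell from 60.1 ± 2.62 to 29.3 ± 3.26 CPM (SD, n = 3), or -1.04 on the log2 scale (SE 0.12, edgeR adjusted p = 1.77e-05). Almost the whole stretch between these starts is given on the strand of XRCC6 (chr22:41621045-41621294, plus strand, RefSeq on GRCh38.p14), with matches to the short motifs searched in capitals.
XRCC6: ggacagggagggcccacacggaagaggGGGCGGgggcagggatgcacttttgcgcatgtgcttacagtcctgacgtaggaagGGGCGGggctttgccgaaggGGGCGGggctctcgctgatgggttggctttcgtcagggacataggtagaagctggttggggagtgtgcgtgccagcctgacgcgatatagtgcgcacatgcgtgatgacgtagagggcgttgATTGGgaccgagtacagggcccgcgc
The capitals mark 3 matches to the GC box letters GGGCGG, 223, 168 and 148 bases before the start, and 1 match to the CCAAT box, read as ATTGG, 26 bases before it. Such matches describe letters only.

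Both gap-filling polymerases had lower means in p53 KO, and POLL passed the threshold. POLL, polymerase lambda, had 27.4, 25.1 and 21.4 CPM in p53 WT and 20.8, 14.4 and 16.4 CPM in p53 KO replicates 1, 2 and 3. The groups did not overlap, with p53 WT replicate 3 and p53 KO replicate 1 nearest to each other. POLL fell by 0.52 on the log2 scale (SE 0.16, 95% interval -0.86 to -0.17, edgeR adjusted p = 0.0296). Its call was lost without p53 WT replicate 1 or 2 or p53 KO replicate 2 or 3, at -0.44, -0.51, -0.40 and -0.47, with adjusted p = 0.0527 to 0.111 by edgeR. POLM, polymerase mu, had 15.8, 14.9 and 15.6 CPM in p53 WT and 10.6, 13.0 and 10.4 CPM in p53 KO. All p53 KO libraries were below the p53 WT libraries, and the log2 fold change was -0.44 (SE 0.16, edgeR adjusted p = 0.057). POLM passed with limma-voom (adjusted p = 0.0375) and without p53 KO replicate 2 (-0.56, edgeR adjusted p = 0.0355). The ratio of POLM to POLL counts overlapped between groups, with a difference of 0.08 in log2 ratio (exact two-sided permutation p = 0.8).

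POLL on chromosome 10 also lies among lower genes, with a local median of -0.24, and had -0.28 after it was taken off (95% interval -0.62 to 0.07, edgeR adjusted p = 0.28). For POLM, on chromosome 7, the local median was -0.13 and the value after it was taken off -0.31 (edgeR adjusted p = 0.212). POLL starts 51 bases from DPCD, which runs the other way. DPCD fell from 22.6 ± 1.79 to 16.8 ± 1.41 CPM (SD, n = 3), or -0.43 on the log2 scale (SE 0.14, edgeR adjusted p = 0.0352). In GENCODE 29 these genes overlap on opposite strands. The counts of DPCD were 0.854 to 1.06 times those of POLL, and whether counting used the strand is not given, so reads from these genes cannot be told apart with certainty. AEBP1, the next gene to POLM, fell by 0.49 on the log2 scale (SE 0.09, edgeR adjusted p = 0.000931). PGAM2, on the other side of POLM, had -0.12 (edgeR adjusted p = 0.839). BTRC, adjacent to POLL on the side away from DPCD, had -0.27 (edgeR adjusted p = 0.0865), and neither gene passed the threshold. The stretch before the start of POLL, which holds the start of DPCD, is shown for comparison with that of XRCC6 (chr10:101588271-101588520, minus strand, the first of 2 RefSeq windows on GRCh38.p14).
POLL: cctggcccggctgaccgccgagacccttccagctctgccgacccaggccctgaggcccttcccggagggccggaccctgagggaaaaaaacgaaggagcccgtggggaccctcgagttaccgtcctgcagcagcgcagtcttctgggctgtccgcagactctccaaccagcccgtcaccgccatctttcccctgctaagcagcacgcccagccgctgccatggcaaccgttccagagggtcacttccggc
It has no capitals because none of the motifs searched was found in these letters.

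Artemis and the ligation genes did not pass the threshold. DCLRE1C, the Artemis nuclease, had 21.0, 25.3 and 20.1 CPM in p53 WT and 35.4, 34.0 and 19.7 CPM in p53 KO replicates 1, 2 and 3. Replicates 1 and 2 of p53 KO were above all p53 WT libraries, and replicate 3 was below them all. The log2 fold change was 0.43 (SE 0.19, edgeR adjusted p = 0.12), and it was 0.66 (edgeR adjusted p = 0.00146) without p53 KO replicate 3, the library with the fewest counts. SUV39H2, the next gene, which overlaps DCLRE1C on the opposite strand in GENCODE 29, rose by 0.42 on the log2 scale (SE 0.11, edgeR adjusted p = 0.0131).

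XRCC4, the scaffold of the ligase, had 14.6, 13.5 and 12.1 CPM in p53 WT and 19.1, 14.99 and 13.5 CPM in p53 KO. Its groups overlapped, and the log2 fold change was 0.25 (SE 0.17, 95% interval -0.12 to 0.61). LIG4, the ligase itself, had 12.2, 10.7 and 10.9 CPM in p53 WT and 12.8, 10.6 and 10.1 CPM in p53 KO. Of the 10 genes it had the log2 fold change nearest to 0, at -0.01 (SE 0.17), with an interval of -0.38 to 0.36. The ratio of LIG4 to XRCC4 counts was 0.832, 0.793 and 0.898 in p53 WT and 0.668, 0.708 and 0.744 in p53 KO. These ratios did not overlap, with a log2 difference of -0.25 (exact two-sided permutation p = 0.1, the smallest possible, and 0.25 adjusted over 5 ratios).

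NHEJ1, which encodes XLF, had 16.5, 19.8 and 19.7 CPM in p53 WT and 24.6, 23.2 and 22.4 CPM in p53 KO. All p53 KO libraries were above the p53 WT libraries. The log2 fold change was 0.33 (SE 0.14, 95% interval 0.04 to 0.62, edgeR adjusted p = 0.0953), and limma-voom gave adjusted p = 0.0482. The neighbouring gene SLC23A3, named after its values were seen, had counts of 1.02 to 1.05 times those of NHEJ1 in every library, such as 1352 against 1296 in p53 WT replicate 1. Whether these genes share reads was not tested, and the value of NHEJ1 is uncertain as that of a single gene. The ratio of NHEJ1 to XRCC4 overlapped between groups (exact two-sided permutation p = 0.6), as did that of DCLRE1C to PRKDC (exact two-sided permutation p = 0.2).

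**Figure D2:**
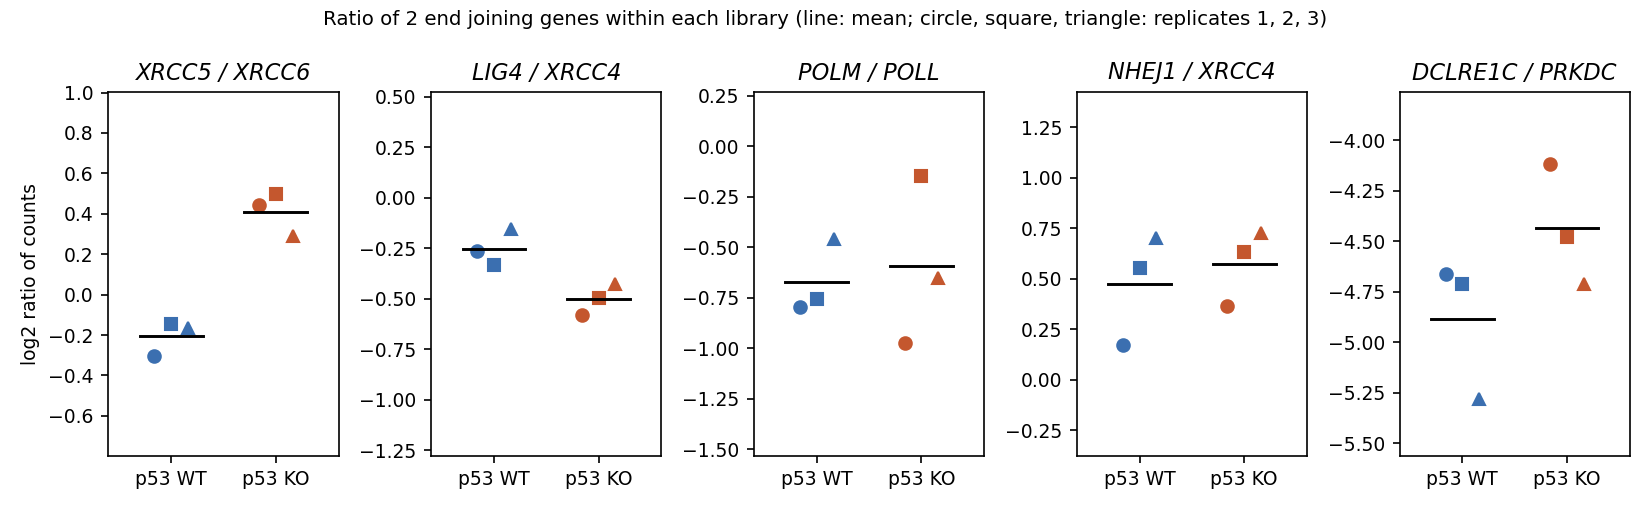
Log2 ratio of the counts of 2 end joining genes within each library, for 5 pairs, each panel spanning the same height (points are libraries, lines are means). XRCC5 over XRCC6 and LIG4 over XRCC4 were the pairs whose groups did not overlap, with differences of 0.62 and -0.25.

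POLQ, the polymerase of the microhomology route, had 40.0, 47.1 and 48.1 CPM in p53 WT and 60.1, 71.1 and 47.3 CPM in p53 KO replicates 1, 2 and 3. Replicates 1 and 2 of p53 KO were above all p53 WT libraries, but replicate 3 lay within the p53 WT range. POLQ rose by 0.41 on the log2 scale (SE 0.14, 95% interval 0.10 to 0.71, edgeR adjusted p = 0.0492), just inside the threshold. The call was lost in each fit that left out 1 library other than p53 KO replicate 3, at 0.25 to 0.45, and was 0.56 (edgeR adjusted p = 0.00224) without that replicate.

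Around POLQ, on chromosome 3, the local median was 0.29, and POLQ had 0.12 after it was taken off (95% interval -0.19 to 0.42, edgeR adjusted p = 0.648). With the 20 and 100 nearest genes the local median was 0.43 and 0.27. The adjacent genes GOLGB1 and STXBP5L had 0.12 and 0.61 (edgeR adjusted p = 0.655 and 0.409) and were not called. POLQ is known to be expressed in proliferating cells, so a list of 14 proliferation genes was set beside it. Of these, 6 rose, 1 (RRM2, a subunit of ribonucleotide reductase) fell and 7 were not called, beside 12.1% of all genes higher and 14.4% lower. The median log2 fold change of the list was 0.21, and its summed level was 3232 to 3666 CPM in p53 WT and 3827 to 4415 CPM in p53 KO. The largest rises were those of MCM2, CCNB1 and PLK1, genes of replication and mitotic entry, at 0.90, 0.73 and 0.69 on the log2 scale. Among the genes that were not called, the proliferation marker MKI67 had 0.19, TOP2A 0.14 and the mitotic kinase CDK1 -0.11. The part of proliferation in the value of POLQ was not tested. The bases before the start of POLQ are shown because it alone among the members with a RefSeq window held a match to the core of the cell cycle homology region (chr3:121545989-121546238, minus strand, GRCh38.p14).
POLQ: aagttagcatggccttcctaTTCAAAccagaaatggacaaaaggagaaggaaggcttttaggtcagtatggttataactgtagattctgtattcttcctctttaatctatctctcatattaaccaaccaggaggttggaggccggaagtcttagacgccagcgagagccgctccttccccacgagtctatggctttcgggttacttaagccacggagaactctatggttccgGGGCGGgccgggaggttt
The capitals mark that match, TTCAAA (the other strand of TTTGAA), 230 bases before the start, and a GC box 18 bases before it.

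Windows of 250 bases before to 50 after the start were given for 8 of the 10 genes, not for XRCC5 and PRKDC, and both strands were searched. The cell cycle homology region core (TTTGAA or TTCGAA) was in 1 of 8 genes and in 19.5% of all 27305 genes in the table. E2F site letters (TTGGCGC or TTCCCGC or else TTCGCGC) were in 3 of 8, XRCC6, DCLRE1C and POLQ, against 13.1% of all genes, in XRCC6 and POLQ within the bases after the start. ATTGG was in 6 of 8 genes against 39.7% of all, and GGGCGG in 7 of 8 against 48.3%. Cores of the p53 half-site (CATGCCC or CATGTCT or else CATGTCC) were in DCLRE1C and XRCC4, against 10.5% of all genes. Neither of these passed the threshold, and the called genes XRCC6, POLL and POLQ held no such core in these windows. A CCAAT match and an E2F match can share the letters TTGG, and a half-site core is not a complete p53 site.

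Head-to-head starts, a layout looked for after the values of DESI1 and DPCD were seen, were found for several members. With at most 500 bases between the starts, 4 of the 8 genes had a partner that was tested, where 18.3% of the genes in the promoter table had any such start. Beside XRCC6 with DESI1 and POLL with DPCD, these were XRCC4 with TMEM167A at 153 bases and LIG4 with ABHD13 at 43 bases. TMEM167A had a log2 fold change of 0.21 with SE 0.11, beside 0.25 of XRCC4, and ABHD13 had -0.18 with SE 0.18, beside -0.01 of LIG4. The partners of XRCC6 and POLL were called in the same direction as these members. XRCC4 and TMEM167A also overlap on opposite strands in GENCODE 29. Over all 762 such pairs with both genes tested, 47.1% of the genes called lower had a partner called lower, against 17.3% of all partners.

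The log2 fold change had the sign of the local median in 9 of 10 genes, with PRKDC the exception (-0.07 against 0.04), and in 64.1% of 17093 genes with a local median. This count depends on the window, since with the 20 nearest genes DCLRE1C had a local median of -0.03 against its 0.43. XRCC5 and NHEJ1, both on chromosome 2, had the same local median of 0.12, and LIG4 lay near 0 (-0.01 against -0.02). Net of the local median, 0 of the 10 were called by edgeR, while 9.48% of all 22352 genes tested were called higher and 10.2% lower. That background includes genes without a local median, from which nothing was taken off. Of the 10, 0 had an unadjusted p under 0.05, and the share of all genes at that level was not computed. The median of the 10 genes net of the local median was -0.01. DCLRE1C kept the largest value, 0.38 (95% interval -0.03 to 0.79), in a neighbourhood with a local median of 0.05.

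**Figure D3:**
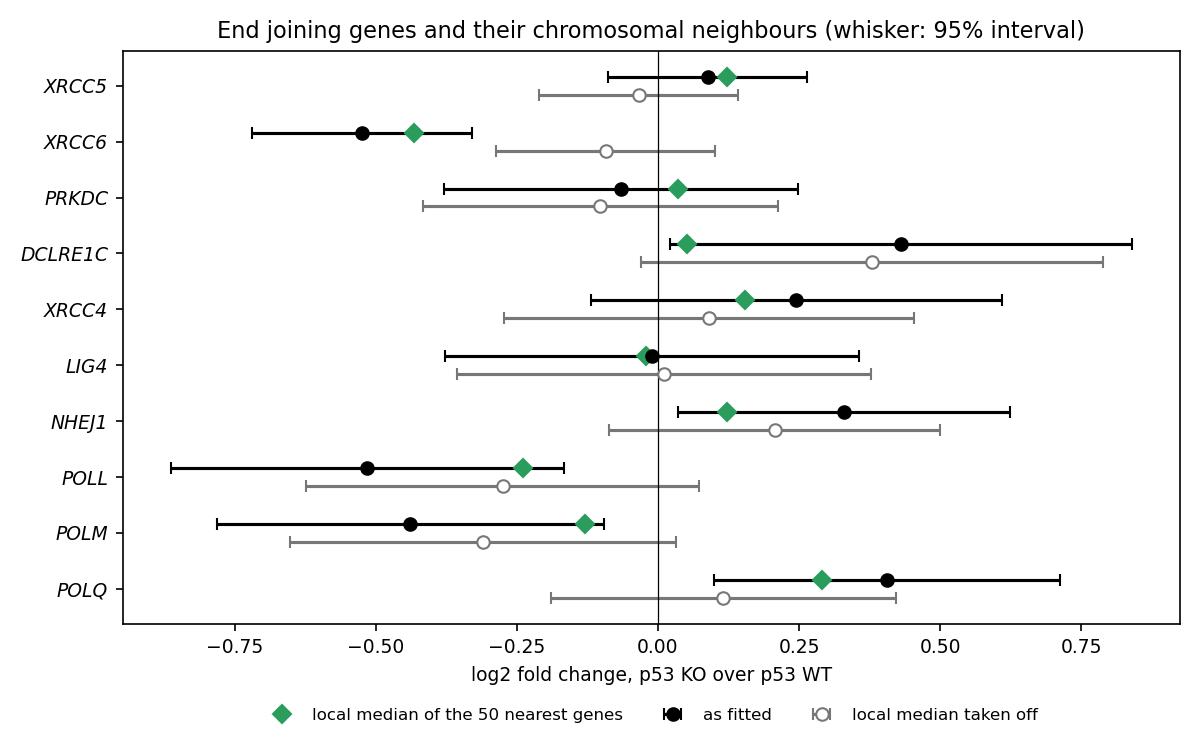
Log2 fold change of the 10 end joining genes, p53 KO over p53 WT, as fitted (filled circle) and with the local median taken off (open circle), with 95% intervals, and the local median of the 50 nearest genes (diamond). XRCC6 moved from -0.52 to -0.09 and POLQ from 0.41 to 0.12, and every interval of the open circles includes 0.

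Other genes of end joining were taken from 2 lists. The first held 15 regulators, end-cleaning enzymes and accessory factors of classical end joining, of which 14 were tested, since DNTT, the template-independent polymerase of lymphocytes, had 0 counts in all 6 libraries. Of these, 0 rose and 4 fell by edgeR, against 12.1% and 14.4% of all genes. DESeq2 and limma-voom also called 0 higher, beside 3021 of 36824 and 3131 of 22352 genes tested. The DESeq2 total takes in low-count genes that the filter removed from the limma-voom fit, so these shares are not comparable. At an unadjusted p under 0.05 by edgeR, 1 was higher and 5 lower, and the share of all genes at that level was not computed. The median log2 fold change was -0.10. TDP1, which removes topoisomerase I and other adducts from DNA ends, fell from 24.6 ± 0.649 to 8.70 ± 1.37 CPM (SD, n = 3), or -1.51 on the log2 scale, and had -0.60 (edgeR adjusted p = 0.014) net of a local median of -0.91. IFFO1, a nuclear filament protein reported to bind XRCC4, fell from 18.6 ± 2.11 to 7.26 ± 0.301 CPM (SD, n = 3). Its log2 fold change was -1.36, and -1.38 net of a local median of 0.02. APTX, which removes stalled AMP groups left by failed ligation, fell by 0.60, and ERCC6L2 fell by 0.45 but had -0.15 (edgeR adjusted p = 0.581) net of the local median. Of the 6 fits that left out 1 library, ERCC6L2 kept its call in the one without p53 KO replicate 1 (-0.65), and had -0.51 to -0.30 in the others. Net of the local median, 3 of the 4 kept their call, and the share of all called genes that did so was not computed.

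The second list held 16 genes of alternative end joining and of the resection that feeds it, and all were tested. Of these, 6 rose and 5 fell, and the groups did not overlap for 14 of 16, beside 12.1%, 14.4% and 40.8% of all genes. The median was 0.09. HMCES, a shield of abasic sites also implicated in microhomology joining, rose from 42.4 ± 3.06 to 96.6 ± 11.4 CPM (SD, n = 3), or 1.18 on the log2 scale (SE 0.12, edgeR adjusted p = 5.07e-06). LIG3, the ligase most tied to alternative joining, had 23.2, 29.7 and 31.8 CPM in p53 WT and 44.6, 45.2 and 41.7 CPM in p53 KO, a rise of 0.64 on the log2 scale (SE 0.13). Its partner XRCC1, the break sensor PARP1, the flap nuclease FEN1 and the nuclease MRE11A, all named after their values were seen, rose by 0.49, 0.34, 0.35 and 0.52. PARP1 lost its call without p53 WT replicate 1 (0.30, edgeR adjusted p = 0.0503). FEN1 lost it without p53 WT replicate 2 or 3 (0.30 and 0.35), and MRE11A without p53 WT replicate 1 or 3 or p53 KO replicate 1 (0.45, 0.49 and 0.45).

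The 5 that fell were NBN, RAD50, RBBP8, ERCC1 and RAD52. NBN, which tethers MRE11 and RAD50 to breaks, fell from 89.0 ± 4.78 to 57.3 ± 8.03 CPM (SD, n = 3), or -0.63 on the log2 scale. RAD50 had -0.42, so that the members of the MRE11, RAD50 and NBN complex did not move one way. RBBP8 (CtIP), which starts resection with that complex, had -0.48, ERCC1, a flap-cutting subunit, -0.36, and RAD52, which anneals single strands, -0.52. RAD50 lost its call without p53 WT replicate 2 or 3 or p53 KO replicate 3 (-0.39, -0.38 and -0.32). RAD52 lost it without p53 WT replicate 2 or 3 or p53 KO replicate 1 or 3 (-0.51, -0.46, -0.44 and -0.47). Net of the local median, 3 of the 6 that rose and all 5 that fell kept their call. The share of all called genes that kept theirs was not computed. The 3 were HMCES, LIG3 and PARP1, with 0.82, 0.40 and 0.29.

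**Figure D4:**
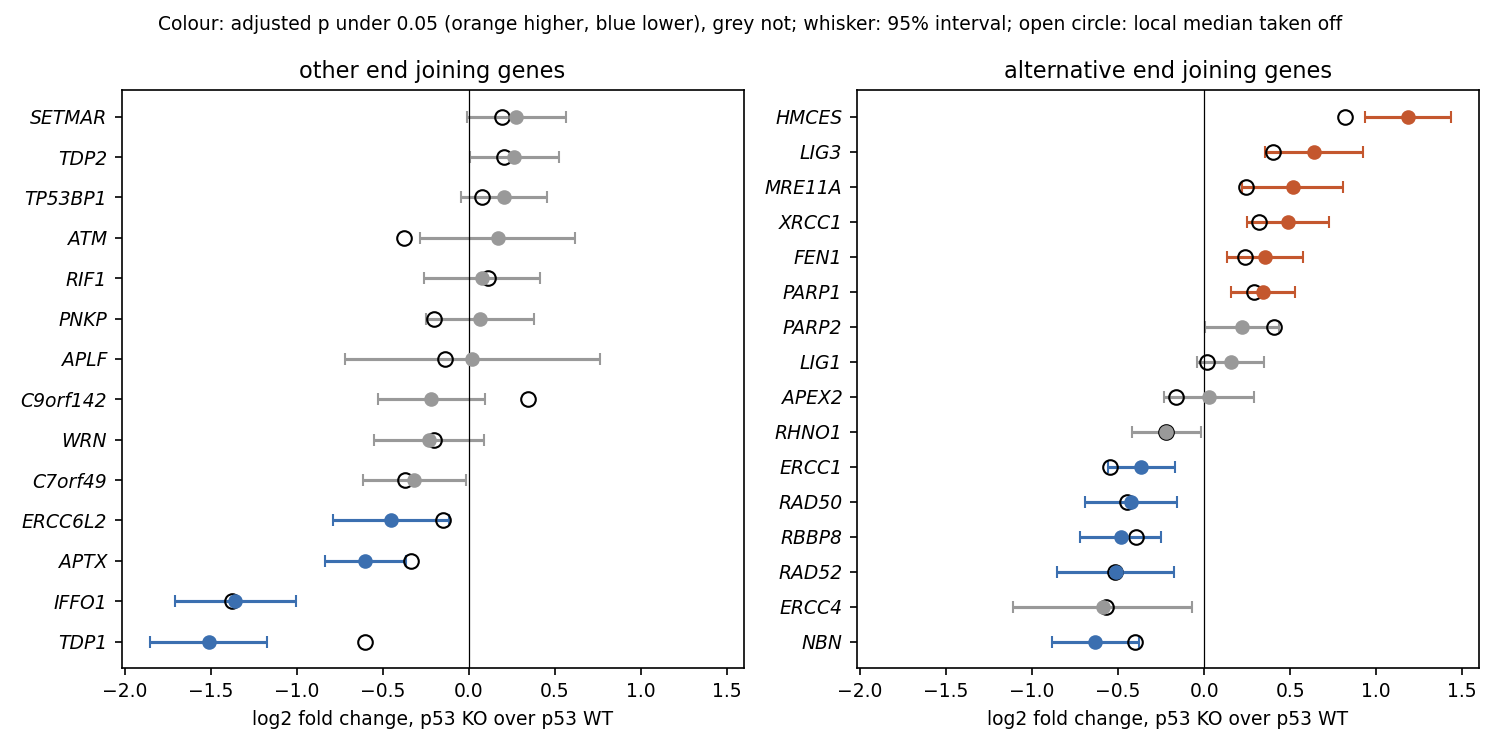
Log2 fold change with 95% interval of 14 other end joining genes and 16 alternative end joining genes (orange called higher, blue called lower, grey not called; open circles have the local median taken off). TDP1 at -1.51 and HMCES at 1.18 lie farthest out, and the open circle of TDP1 lies at -0.60.

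The authors' deposited table compared the same genotypes, and its log2 fold changes are given here with the sign turned to p53 KO over p53 WT, a direction read from CDKN1A, since the table does not state it. In the authors' deposited table XRCC6 had -0.50 (adjusted p = 0.000384), POLL -0.49 (adjusted p = 0.0416) and POLM -0.42 (adjusted p = 0.0436). POLQ had 0.43 with an adjusted p of 0.165 in the authors' deposited table, so that 3 members passed there too, with POLM in place of POLQ. Across its 35987 rows, not all with an adjusted p, 2704 genes were lower in p53 KO and 2325 higher at an adjusted p under 0.05. That table lists 2181 genes with 0 counts in all 6 libraries here. Among them is DNTT, with a mean of 0.652 there, so it was not made from these 6 columns alone. It marks none of the 10 members as intersecting a p53 cistrome, where 0.555% of all genes tested here and 3.81% of those called lower carry the mark. Of the 124 genes in the authors' deposited table that carry the mark, 123 were called lower in p53 KO here and 0 higher. The mark is therefore not independent of direction, and its absence says little about a gene that is not lower. It also says little about XRCC6 and POLL, since few of the genes called lower carry the mark.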

How the data were processed

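Per the labels' protocols, TruSeq stranded mRNA libraries were made from TRIzol lysates of 6 DIvA samples. The submitters' processing notes name GRCh37 (hg19), HISAT2 2.1.0, fastp 0.21.0 and DESeq2 1.3.6, and no source used here names the counter or its annotation. The authors deposited whole-number counts per gene symbol. In the authors' deposited comparison table, baseMean was taken as a signal (mean of scaled counts). The authors' table also holds log2 fold changes and their errors, a statistic taken as a score, and raw and adjusted p-values. No per-sample column was left unused (0).

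These counts went into edgeR 4.0.16 under R 4.3.3 (quasi-likelihood F-test, robust, TMM factors of 0.979 to 1.02, filterByExpr), p53 KO against p53 WT, without a replicate block. SE is the size of the log2 fold change over the square root of F, and 95% intervals are not adjusted for many genes. The local median was taken off as a fixed value, so p-values and intervals net of it leave out its own error. CPM use the TMM-scaled totals. Replicates were not copies: chi-square per degree of freedom was at least 16.7. The gene rows with a position (RefSeq, GRCh38.p14, used for gene order only) were matched by symbol (30871) or synonym (2129). The code was tested on simulated data. The members, lists and the local median were chosen with earlier results of these data known. Named are all members, CDKN1A, each other list's 3 smallest adjusted p and its called genes where a direction had at most 5, and called adjacent genes. Genes adjacent to XRCC6, POLL, POLM and POLQ are named whether called or not. Some named items are not reported here. Alternatives were other scalings and filters, DESeq2 1.42.0, limma-voom (limma 3.58.1), adjusted p under 0.01, the replicate block, each library left out, and the local median.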

Additional observations from a re-analysis of the deposited data

How the results depend on the processing

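Of the members, XRCC6 kept its call under every alternative tried except the local median. The number of members called higher was 1, and it was 0 with no composition factors, at adjusted p under 0.01, with the replicate block and with the local median taken off, 2 with no filter and with limma-voom, and 0 to 2 when 1 library was left out. The number called lower was 2, and it was 1 at adjusted p under 0.01, 0 with the local median taken off, 3 with limma-voom and 1 to 2 when 1 library was left out. No pairing of the libraries by replicate number was seen (correlations of deviations of 0.02, 0.03 and -0.03 for numbers 1, 2 and 3). With 3 libraries per group these correlations cannot exclude it, and total counts fell from replicate 1 to replicate 3 in both genotypes. Under the block the members called were 0 higher and 2 lower. At adjusted p under 0.01, 1659 genes were higher and 2099 lower, against 2697 and 3227, and 3 alternative end joining genes were lower, against 5. When 1 library was left out, other end joining genes called higher were 0 to 1 (1 without p53 KO replicate 3), and alternative end joining genes called lower 3 to 6 (3 without p53 WT replicate 2 or 3). No result reversed. Causes were not tested. Members at 10 to 60 CPM had SEs of 0.14 to 0.19, which limits what could be called with 3 libraries per group. PRKDC, at means of 660 CPM in p53 WT and 630 CPM in p53 KO, also had an SE of 0.15.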

Other observations

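Genes of V(D)J recombination, which hands its breaks to classical end joining in lymphocytes, had low levels. RAG1 and RAG2, the recombinase subunits, had means of 0.650 and 1.09 CPM in p53 WT and 1.305 and 1.83 CPM in p53 KO, with log2 fold changes of 0.99 and 0.76 that did not pass by edgeR (adjusted p = 0.194 and 0.288), and their groups overlapped.

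MCM4, a subunit of the replicative helicase and the next gene to PRKDC in order, had 279 ± 8.39 CPM in p53 WT and 293 ± 12.8 CPM in p53 KO (SD, n = 3), a far smaller spread than that of PRKDC. Next to the members that were not called, MARCH4 beside XRCC5 had -1.57, FAM155A beside LIG4 -1.34 and HAPLN1 beside XRCC4 0.71 on the log2 scale, each past the threshold by edgeR (adjusted p = 6.37e-08, 0.0001 and 0.000208).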
